A study of Mus musculus with 12 samples.

Results

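The 53 genes described here encode the machinery of DNA replication and the S phase of the cell cycle. They were taken as a list of gene symbols out of 23337 genes in the count tables, and each symbol was found in both tables. RNA was from peeled urothelium, the epithelial lining of the bladder stripped from the wall, of mice labelled Stag2-WT (wild type, WT) or Stag2-KO (knockout, KO). STAG2 belongs to cohesin, which encircles DNA and holds sister chromatids together, and the title of the study places it beside DREAM in keeping the urothelium quiescent. Every mouse, WT included, received a TMX-containing diet for 1 week, and tissue was taken 1 week or 1 month after the diet began. The 12 libraries form 4 groups of 3: each genotype at 1 week and each genotype at 1 month. All 1-week libraries were labelled batch 1. At 1 month, replicates 1 and 2 of each genotype were batch 2 and replicate 3 of each was batch 3, so time and batch cannot be told apart. The labels used here name neither the Cre driver, the Stag2 allele, the strain, nor the age or sex of the mice. Each library carries its own animal number, and a p-value below measures only the spread between these libraries.

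Replication begins when the origin recognition complex, Cdc6 and Cdt1 load the ring-shaped Mcm helicase onto DNA in G1. In S phase, Cdc45 and the GINS complex switch the helicase on, DNA polymerases with primase copy the strands, and the sliding clamp PCNA, loaded by replication factor C, holds the polymerases in place. Genes for these proteins are classic targets of E2F transcription factors, and the repressor complex DREAM keeps them off in resting cells. The adult urothelium is mostly resting and divides slowly unless injured.

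Libraries held between 5580961 and 9497088 counts in genes. Values are CPM, the share of a library's counts scaled with trimmed-mean (TMM) factors from edgeR to a common total, and come from 3′ tag counts, so each gene was compared only with itself. Counts of Stag2, the targeted gene, were 990, 927 and 1488 in the WT libraries of 1 week against 564, 553 and 339 with the KO label (log2 fold change -0.89, SE 0.27, edgeR adjusted p = 0.198). At 1 month they were 301, 344 and 303 against 308, 228 and 127 (log2 fold change -0.88, SE 0.22, edgeR adjusted p = 0.0507). Stag2 RNA was thus still counted in each KO library. The 3′ tags may lie outside the deleted part, but the source of this RNA was not tested. The X-inactivation RNA Xist ranged from 1 to 13 counts over the 1-week WT libraries and from 6392 to 10406 over the KO ones, while Y-linked genes had 1360 to 2140 and 0 to 4. Genotype and this sex-linked split therefore cannot be told apart at 1 week. At 1 month only KO replicate 3 had the high Xist and no Y-linked counts. KO replicate 3 of 1 week had the lowest TMM factor of that time, 0.873 against 1.01 to 1.05. The tissue check held for the epithelium: the mean log2 CPM of 15 urothelial markers lay between 8.72 and 9.41 in the 12 libraries. Markers of leukocytes, stroma, vessels and muscle were also present (mean log2 CPM of 28 genes 3.74 to 5.33), so the peeled sheet was not purely epithelial. In bulk tissue, more cells of a type and more RNA per cell cannot be told apart.

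The promoters show what the members share in sequence. In RefSeq windows from 250 bases before to 50 bases after the gene start (build GRCm38.p6, the assembly called mm10), 42 of the 53 members had an entry, and 11 had none: Gmnn, Mcm4, Gins1, Gins2, Gins4, Prim2, Pole, Rfc2, Tipin, Usp1 and Exo1. An E2F site was searched in 4 forms, TTTCCCGC, TTTCGCGC, TTTGCCGC and TTTGGCGC, on both strands. At least 1 match stood in the windows of 20 of the 42 members, or 47.6%. The share was 2.6% of 27025 mouse genes in the same RefSeq set and 3.29% of the protein-coding ones. All shares of promoters here count genes, and a gene counts once if any of its windows matches. Lig1 has 3 windows, and Mcm7, Fen1 and Uhrf1 have 2 each. The windows of the 20 members held 26 matches, of which 18 began within 100 bases of the start. The cell cycle homology region TTTGAA, the element through which DREAM acts at many genes of later phases, was in 11.9% of member promoters and 20.2% of all promoters. The CCAAT box was in 59.5% and 41.1%. Only Gins3 held both an E2F match and TTTGAA. A match describes the letters and does not show binding.

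The promoters of 6 members are printed in lower case with E2F matches in capitals. Where a member has several windows, the first with an E2F match is printed. Those of Lig1, Mcm7, Pola1 and Mcm3 have the highest mean CPM among members with an E2F match. The other two, Mcm5 and 2810417H13Rik, were chosen after their values were seen, because the 1-week and 1-month comparisons below turn on them.
Lig1, DNA ligase 1, chr7:13278576-13278875, plus strand: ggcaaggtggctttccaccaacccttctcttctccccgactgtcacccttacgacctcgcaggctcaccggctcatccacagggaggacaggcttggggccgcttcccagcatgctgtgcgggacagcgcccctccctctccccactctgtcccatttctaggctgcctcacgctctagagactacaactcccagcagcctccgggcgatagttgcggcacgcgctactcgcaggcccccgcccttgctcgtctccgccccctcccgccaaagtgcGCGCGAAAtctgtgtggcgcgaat
Mcm7, chr5:138171834-138172133, minus strand: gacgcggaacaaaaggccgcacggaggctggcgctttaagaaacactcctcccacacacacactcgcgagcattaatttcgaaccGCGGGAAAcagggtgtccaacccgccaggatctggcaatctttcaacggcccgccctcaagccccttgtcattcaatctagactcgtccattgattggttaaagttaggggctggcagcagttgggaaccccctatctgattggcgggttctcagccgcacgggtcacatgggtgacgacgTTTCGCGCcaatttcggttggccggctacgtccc
Pola1, catalytic subunit of DNA polymerase alpha, chrX:93632106-93632405, minus strand: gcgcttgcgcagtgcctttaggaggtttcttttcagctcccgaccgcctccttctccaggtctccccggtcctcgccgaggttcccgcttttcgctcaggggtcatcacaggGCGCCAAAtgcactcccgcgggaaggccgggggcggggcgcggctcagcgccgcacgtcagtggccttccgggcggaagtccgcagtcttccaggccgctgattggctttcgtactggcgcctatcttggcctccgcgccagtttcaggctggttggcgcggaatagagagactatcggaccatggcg
Mcm3, chr1:20820263-20820562, minus strand: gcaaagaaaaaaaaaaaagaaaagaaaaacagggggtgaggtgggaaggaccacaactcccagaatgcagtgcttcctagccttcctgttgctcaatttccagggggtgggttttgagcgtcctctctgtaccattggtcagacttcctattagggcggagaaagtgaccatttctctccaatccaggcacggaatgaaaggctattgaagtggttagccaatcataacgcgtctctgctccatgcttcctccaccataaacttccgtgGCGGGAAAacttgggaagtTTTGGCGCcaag
Mcm5, chr8:75109259-75109558, plus strand: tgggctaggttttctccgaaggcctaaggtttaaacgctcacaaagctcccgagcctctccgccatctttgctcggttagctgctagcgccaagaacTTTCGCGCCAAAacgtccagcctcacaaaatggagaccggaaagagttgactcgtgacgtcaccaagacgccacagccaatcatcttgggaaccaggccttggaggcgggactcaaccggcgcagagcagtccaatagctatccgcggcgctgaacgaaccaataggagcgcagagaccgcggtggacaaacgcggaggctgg
2810417H13Rik, named Pclaf in RefSeq, chr9:65890073-65890372, plus strand: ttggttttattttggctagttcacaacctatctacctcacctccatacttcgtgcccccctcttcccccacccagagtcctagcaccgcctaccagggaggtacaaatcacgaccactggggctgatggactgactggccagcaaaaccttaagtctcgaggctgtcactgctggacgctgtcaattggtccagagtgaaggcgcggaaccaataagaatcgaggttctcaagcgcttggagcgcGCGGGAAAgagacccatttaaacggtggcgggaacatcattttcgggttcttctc
With the first base of the annotated start counted as 1 and the base before it as -1, the matches of Mcm3 begin at 20 and 39 and that of Lig1 at 27, all after that start. The match of 2810417H13Rik begins at -5 and spans the start. Those of Mcm5 begin at -153 and -149 and overlap each other, so they appear as 1 run of capitals. For Lig1, Mcm7, Pola1 and Mcm5 the start used by the window lies inside the span of the gene in RefSeq, which reaches further upstream. The members lie on 16 chromosomes, with the most, 8, on chromosome 5, and Pola1 is the only one on the X.

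One week after the start of TMX, replication genes were mostly higher in KO urothelium. Uhrf1, a chromatin factor, 2810417H13Rik, a clamp-binding factor, Pole, a polymerase subunit, and Mcm5 of the helicase had the largest log2 fold changes of the tested members. The mean log2 CPM of the 53 genes was 2.58, 2.69 and 2.44 in the WT libraries and 2.95, 4.30 and 3.78 in the KO libraries. Each KO library stood above each WT library, and KO replicate 1 stood closest to WT. Summed over the 53 genes, the level was 668 to 745 CPM in WT and 946, 1783 and 2226 CPM in KO. The mean CPM was higher in KO for 47 of the 53 members, or 88.7%, against 53.1% of all genes with a count. For 24 members each KO library lay above each WT library, or 45.3%, and for none did each lie below. Such genes are called separated here, and the others overlapped. Over all 18900 genes with a count the corresponding shares were 11% higher and 9.79% lower (14.1% and 12.5% of the genes that passed the low-count filter). The members were listed with earlier results of these data known, so their shares are descriptions.

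**Figure D1:**
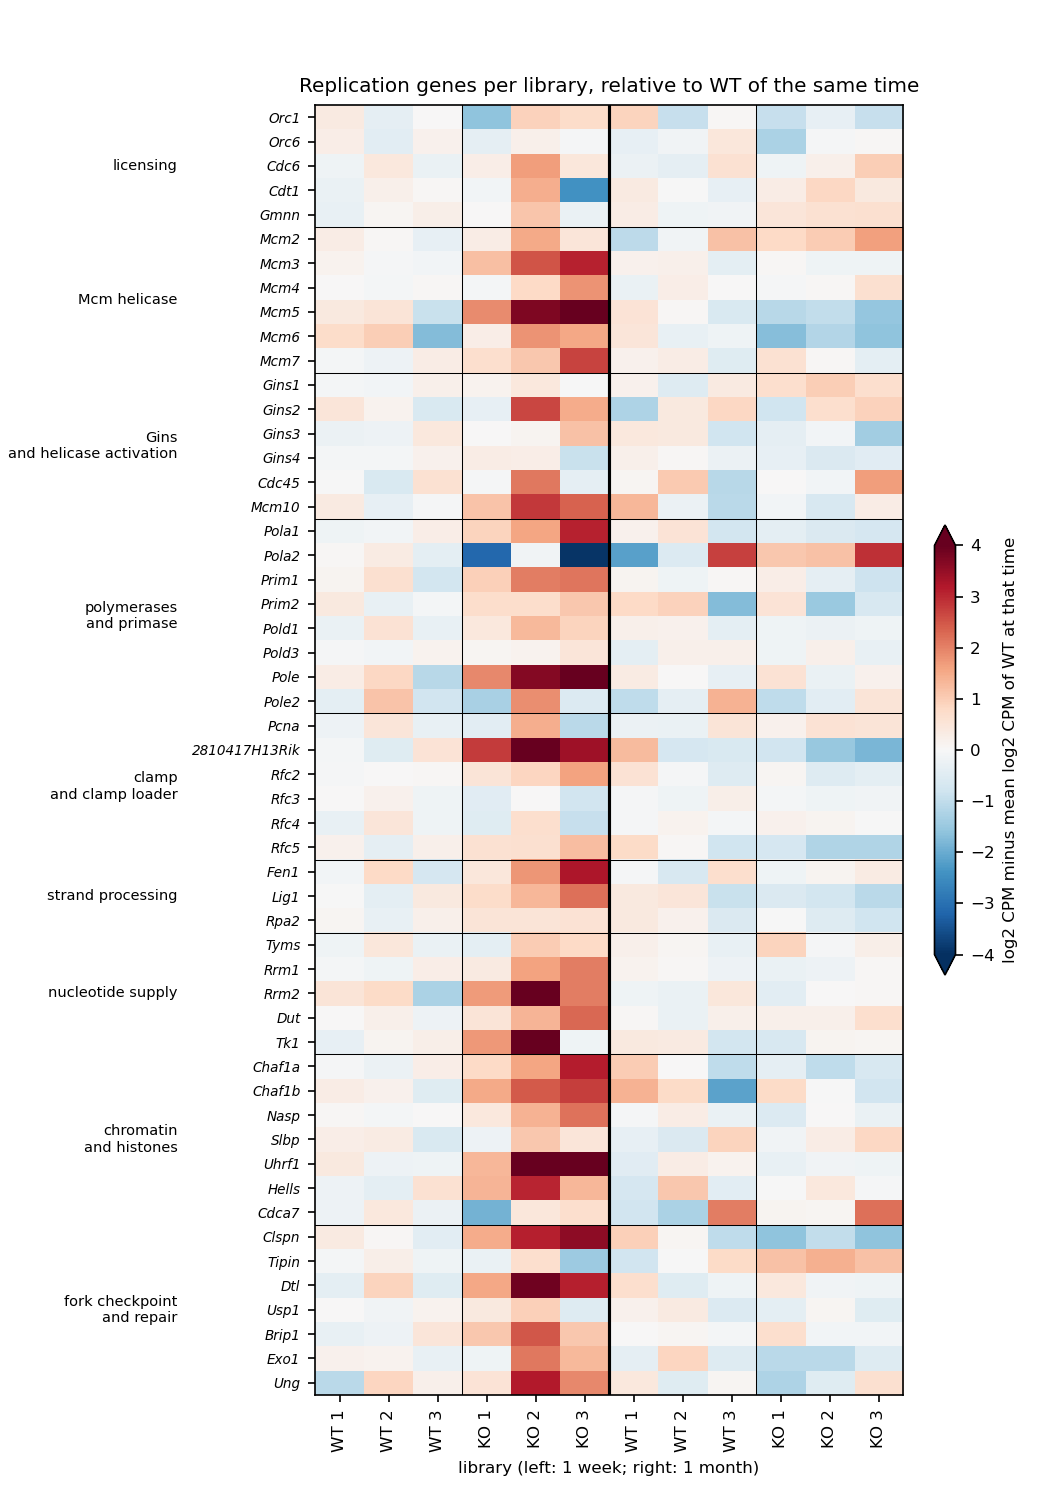
Level of each of the 53 members (rows, ordered by role) in each of the 12 libraries (columns), as log2 CPM minus the mean log2 CPM of the WT libraries of the same time (red higher, blue lower, colours limited at 4 units either way). KO replicates 2 and 3 of 1 week carry most of the high values, KO replicate 1 of 1 week is intermediate, and the 1-month columns show no such block.

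By the test used for calls, edgeR's quasi-likelihood test with a Benjamini-Hochberg adjusted p under 0.05 over all genes, no member passed at 1 week. The same test called 0.0157% of 12754 tested genes higher and 0.047% lower, and the smallest adjusted p of a member was 0.0927, for 2810417H13Rik. At an unadjusted edgeR p under 0.05, 25 members were higher and 0 lower, against 10.5% and 5.03% of all tested genes. DESeq2 on the same counts called 20 members higher and 0 lower at its adjusted p under 0.05 (4.48% and 1.6% of 14528 genes), and all 20 were among the 25. The 4 members Orc1, Cdc45, Pole2 and Exo1 were too low to be tested with edgeR, and Dtl passed the low-count filter through the KO libraries alone. Of the 49 tested members 43 had a positive and 6 a negative log2 fold change (51.5% and 48.5% of all tested genes), and the median was 1.07, against 0.024 over all tested genes. Since 10 of the 49 reached the filter's level in fewer than 3 WT libraries, the edgeR counts and this median describe only those that passed. They are not values for the whole list. Among the 25, Mcm10, Pole, Fen1, Rrm2, Chaf1b, Uhrf1, Dtl and Ung reached that level in fewer than 3 WT libraries but in all 3 KO libraries. One fit over all 12 libraries, which shares 1 estimate of spread, called 11 members higher (3.08% of 13122 genes). The DESeq2 count depended on single libraries: it was 7, 9 and 7 without WT replicate 1, 2 or 3 (1.82%, 1.85% and 1.75% of all genes tested), and 25, 11 and 17 without KO replicate 1, 2 or 3 (5.49%, 5.5% and 4.89%). Both the count and the share of all genes were lower without any 1 WT library than without any 1 KO library. With edgeR, 3 members were called higher without KO replicate 1 (0.36% of all genes tested), 3 without KO replicate 3 (1.68%), and 0 without any 1 of the other four libraries.

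**Figure D2:**
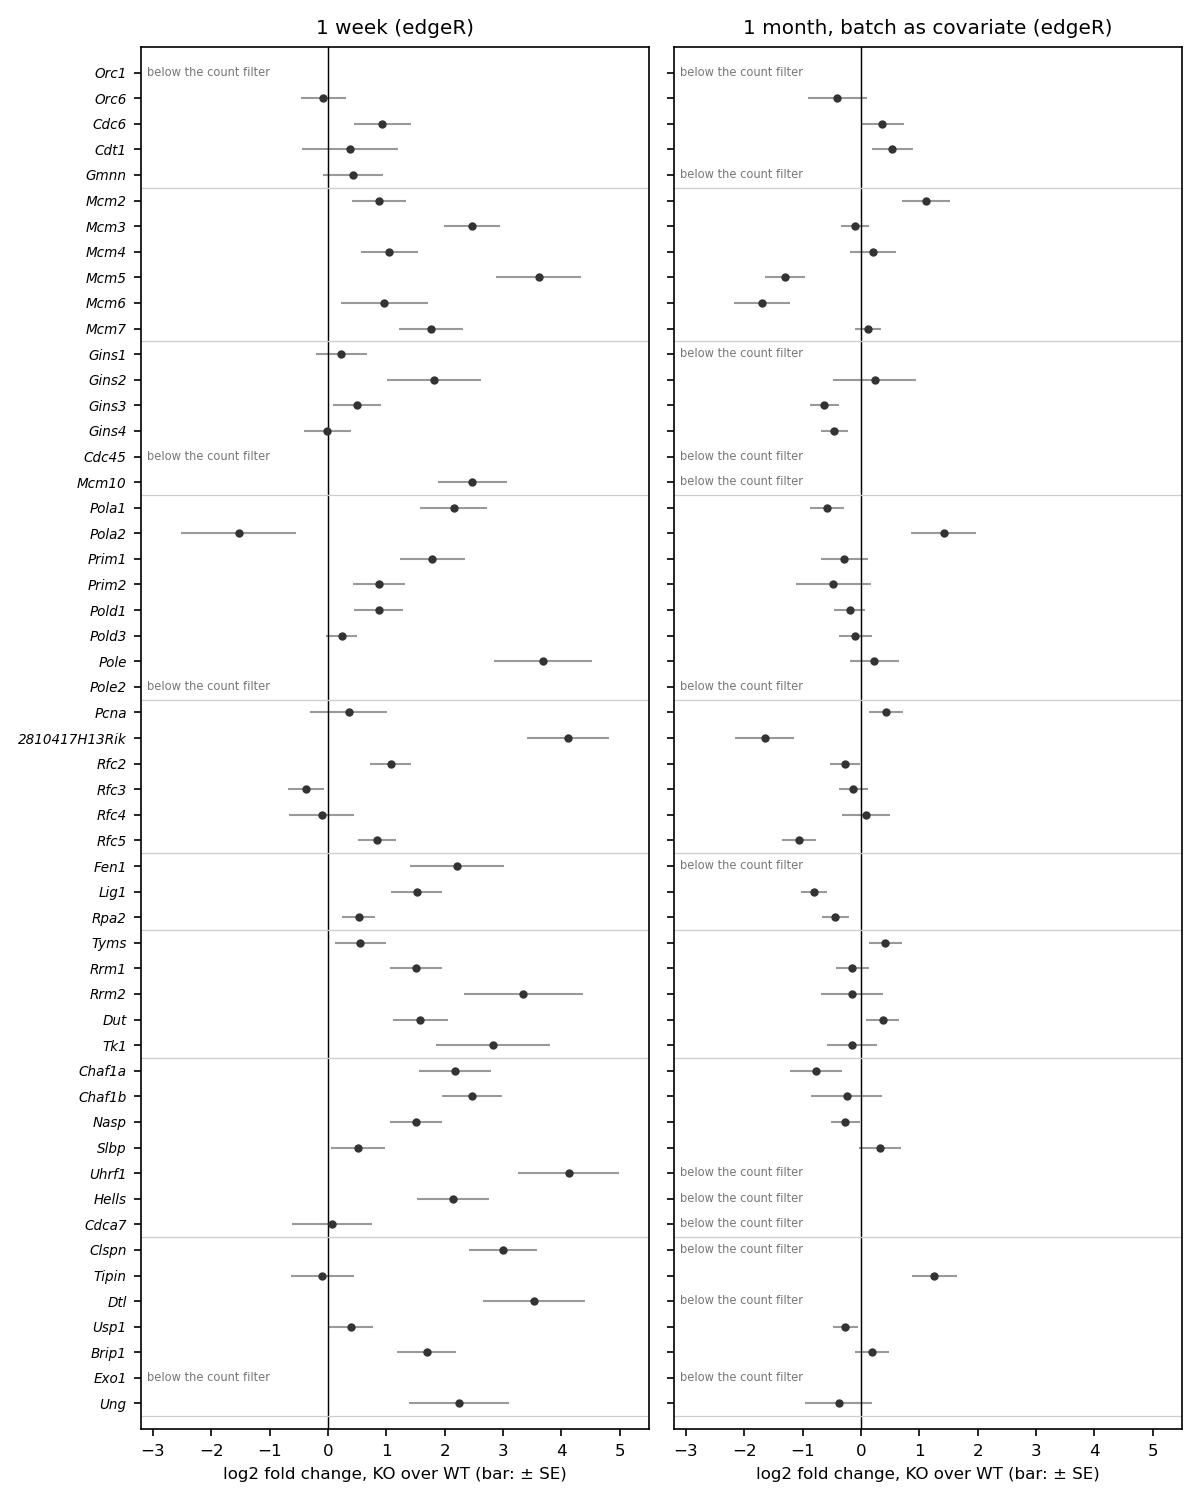
Log2 fold change of KO over WT from edgeR for each tested member at 1 week and 1 month (points, with bars of 1 SE either side), with members in rows by role. At 1 week 43 of 49 points lie right of 0, and at 1 month 15 of 40 do (22 of 40 when scaled by library size alone).

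The role groups below hold 3 to 8 members each, and differences between groups were not tested. Their counts of separated members stand beside 11% higher and 9.79% lower of all genes with a count. The licensing factors showed no separation between genotypes at 1 week. Cdc6, the ATPase that helps to load the helicase, had 5.83, 8.87 and 5.39 CPM in WT and 7.97, 21.2 and 8.99 in KO (log2 fold change 0.93, SE 0.49, edgeR adjusted p = 0.406). Cdt1, its partner in loading, had 5.47, 7.7 and 6.95 CPM in WT and 6.08, 18.7 and 1.02 in KO. KO replicate 2 was thus the highest of the 6 libraries for both, while KO replicate 3, with 5 counts of Cdt1, was the lowest for that gene. Without KO replicate 2 the log2 fold change of Cdt1 turned from 0.38 to -0.92. Orc6, a subunit of the origin recognition complex, had 9.12, 5.6 and 8.5 CPM in WT and 5.81, 8.72 and 7.36 in KO. Gmnn, whose protein geminin inhibits Cdt1, ranged over 2.55 to 3.84 CPM in WT and 2.66 to 7.18 in KO. Of the 5 licensing members, 0 were separated, which for so few genes is not far from the shares of all genes.

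Subunits of the Mcm helicase fell on both sides of the separation rule, and differences between subunits were not tested. All 6 had a higher mean in KO, and Mcm3, Mcm5 and Mcm7 were separated while Mcm2, Mcm4 and Mcm6 overlapped. Mcm3 had 15.4, 13.5 and 12.9 CPM in WT and 32.4, 80.4 and 119 in KO (log2 fold change 2.47, SE 0.48, edgeR adjusted p = 0.109, DESeq2 adjusted p = 0.000301). Mcm5 had 3.65, 3.97 and 1.35 CPM in WT and 10.7, 39.8 and 59.1 in KO (log2 fold change 3.61, SE 0.73, edgeR adjusted p = 0.11, DESeq2 adjusted p = 4.12e-05). Mcm7 had 41.3, 38.1 and 53.7 CPM in WT and 70.6, 93.9 and 286 in KO (log2 fold change 1.76, SE 0.55, edgeR adjusted p = 0.206). For these 3 subunits even the lowest KO library, replicate 1, lay above the highest WT library, and replicate 3 was the highest. Mcm6 ranged from 1.14 to 8.87 CPM in WT and from 5.27 to 15.6 in KO, and Mcm2 and Mcm4 each had KO replicate 1 within or below the WT range. The log2 fold changes of Mcm2, Mcm4 and Mcm6 were positive too, at 0.87 (SE 0.46), 1.05 (SE 0.49) and 0.96 (SE 0.75). The subunits form a single ring.

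Among the factors that activate the helicase, Mcm10, which helps to start the fork, was the 1 of 6 that was separated. That share, 16.7%, was near the 11% of all genes with a count. It had 1.46, 0.817 and 1.04 CPM in WT and 2.7, 9.28 and 6.54 in KO (log2 fold change 2.47, SE 0.59, edgeR adjusted p = 0.138, DESeq2 adjusted p = 0.0087). The 4 GINS subunits overlapped between genotypes: Gins3 had 24.6, 24.6 and 38.9 CPM in WT and 28.8, 30.7 and 65 in KO, and Gins4 had 13, 13 and 15.3 in WT and 17, 16.5 and 7.36 in KO. Gins2 was low, with 2.31, 1.75 and 0.933 CPM in WT and 1.22, 11.4 and 4.91 in KO, and only KO replicates 2 and 3 exceeded WT.

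Of the 8 polymerase and primase genes, Pola1, Prim1, Prim2 and Pole were separated. Pola1 had 18.5, 19 and 25.2 CPM in WT and 38.8, 62 and 178 in KO (log2 fold change 2.15, SE 0.58, edgeR adjusted p = 0.16, DESeq2 adjusted p = 0.0112). Its partner Pola2, the B subunit of the same polymerase, was below each WT library in 2 of 3 KO libraries, with 6.93, 8.41 and 5.08 CPM in WT and 0.54, 5.96 and 0.204 in KO, the last from 1 count (log2 fold change -1.53, SE 0.98, edgeR adjusted p = 0.476). KO replicate 3 thus held the highest Pola1 and the lowest Pola2 of the 6 libraries. Pole, the catalytic subunit of polymerase epsilon on the leading strand, had 1.22, 1.87 and 0.311 CPM in WT and 4.32, 15 and 24.7 in KO (log2 fold change 3.69, SE 0.84, edgeR adjusted p = 0.13, DESeq2 adjusted p = 0.000423). The primase subunits Prim1 and Prim2 ranged over 1.24 to 3.62 and 1.63 to 2.8 CPM in WT, and over 4.59 to 10.6 and 3.51 to 4.7 in KO. The delta polymerase genes overlapped, with Pold1 at 6.08, 11 and 5.91 CPM in WT and 9.86, 18.3 and 13.7 in KO, and Pold3 at 35.1, 34.2 and 40.5 in WT and 38.6, 39.98 and 50.9 in KO.

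At the clamp, 2810417H13Rik, whose product binds PCNA, had the smallest adjusted p of the members. It had 1.94, 1.4 and 3.11 CPM in WT and 15.8, 72.9 and 24.1 in KO (log2 fold change 4.11, SE 0.7, DESeq2 adjusted p = 2.94e-07), so the lowest KO library was well above the highest WT library. Pcna itself, named after its values were seen, had 13.7, 22.5 and 13.1 CPM in WT and 11.8, 43.7 and 7.36 in KO (log2 fold change 0.36, edgeR adjusted p = 0.805), high in KO replicate 2 alone and below each WT library in the other two. The clamp loader subunits also fell on both sides of the separation rule, without a test between them. Rfc2 had 25.9, 27.2 and 27.5 CPM in WT and 38.4, 49.3 and 81.8 in KO, and Rfc5 had 20.8, 14.2 and 21.4 in WT and 28.1, 28.7 and 44.2 in KO, both separated. Rfc3 had 32.7, 36.4 and 28.4 CPM in WT and 23.6, 32.4 and 18.8 in KO, and Rfc4 had 2.92, 5.25 and 3.21 in WT and 2.57, 5.96 and 1.84 in KO, both overlapping with negative log2 fold changes of -0.38 and -0.11.

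Strand processing genes were higher in KO for 3 of 3 by the mean. Lig1, which seals Okazaki fragments, had 97.8, 74.9 and 129.9 CPM in WT and 162, 248 and 456 in KO (log2 fold change 1.52, SE 0.44, edgeR adjusted p = 0.182, DESeq2 adjusted p = 0.0383). Rpa2, a subunit of the single-strand binding complex, had 24.3, 18.6 and 26.2 CPM in WT and 32.4, 32.6 and 34.3 in KO, a small but separated difference (log2 fold change 0.52, edgeR adjusted p = 0.406). Fen1, the flap nuclease, had 1.82, 3.62 and 1.14 CPM in WT and 2.84, 7.4 and 20.6 in KO, and KO replicate 1 lay within the WT range.

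In nucleotide supply, the 5 genes each had a higher mean in KO, and Rrm1, Rrm2 and Dut were separated. Rrm1, the large subunit of ribonucleotide reductase, had 28.6, 26.5 and 35.9 CPM in WT and 38.8, 93 and 126 in KO (log2 fold change 1.5, SE 0.45, edgeR adjusted p = 0.19). Its S phase partner Rrm2 had 1.34, 1.63 and 0.207 CPM in WT and 3.38, 24.5 and 4.29 in KO (log2 fold change 3.35, SE 1.02, edgeR adjusted p = 0.198), with KO replicate 2 far above the rest. Dut, which keeps uracil out of DNA, had 14.8, 17.2 and 12.8 CPM in WT and 21.5, 38.8 and 74.2 in KO (log2 fold change 1.58, edgeR adjusted p = 0.191). Tk1, thymidine kinase 1, had 2.19, 3.04 and 3.32 CPM in WT and 9.996, 48.1 and 2.45 in KO, with replicate 3 inside the WT range. In log2 CPM this was the widest spread among the KO libraries of any member. Tyms, thymidylate synthase, ranged over 14.3 to 23.6 CPM in WT and 13.1 to 35 in KO and overlapped.

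The chromatin group had the highest share of separated members, 5 of 7 or 71.4%, against 11% of all genes with a count. Strand processing, with 2 of 3 or 66.7%, was close to it. Uhrf1, which carries DNA methylation over to the new strand, had 1.34, 0.817 and 0.829 CPM in WT and 2.84, 21.9 and 28 in KO (log2 fold change 4.12, SE 0.86, edgeR adjusted p = 0.115, DESeq2 adjusted p = 5.4e-05). Chaf1a, the large subunit of the histone chaperone CAF-1, had 6.68, 5.84 and 8.29 CPM in WT and 12, 21.1 and 61.9 in KO (log2 fold change 2.18, edgeR adjusted p = 0.175). Nasp, a chaperone of histones H3 and H4, had 27.1, 24.9 and 26 CPM in WT and 34.9, 69.1 and 117 in KO (log2 fold change 1.5, edgeR adjusted p = 0.189). In these 3 genes replicate 3 was the highest KO library and replicate 1 the lowest. Chaf1b and the chromatin remodeller Hells were separated as well, with 4.86 to 11.9 and 10.2 to 34.3 CPM in KO. Slbp, which binds the stem-loop of histone mRNA, overlapped at 11.1, 11.4 and 5.91 CPM in WT and 7.83, 19.7 and 12.9 in KO, and so did Cdca7.

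Of the 7 fork checkpoint and repair genes, Clspn, Dtl and Brip1 were separated. Brip1, a helicase that works with BRCA1, had 5.96, 6.3 and 10.5 CPM in WT and 15.7, 42 and 15.7 in KO (log2 fold change 1.69, SE 0.51, edgeR adjusted p = 0.195). Clspn, whose protein claspin relays the stalled-fork signal to Chk1, had 4.62, 3.62 and 2.59 CPM in WT and 10.4, 32.1 and 44.4 in KO (log2 fold change 3, edgeR adjusted p = 0.109, DESeq2 adjusted p = 0.000105). Tipin, part of the fork protection complex, had 10.9, 13.8 and 10.3 CPM in WT and 9.59, 18.8 and 4.09 in KO, the highest value in KO replicate 2 and the lowest in KO replicate 3. Usp1, a deubiquitinase that acts on PCNA, showed the same order, with 88.8, 80.1 and 97 CPM in WT and 117, 169.96 and 61.3 in KO.

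**Figure D3:**
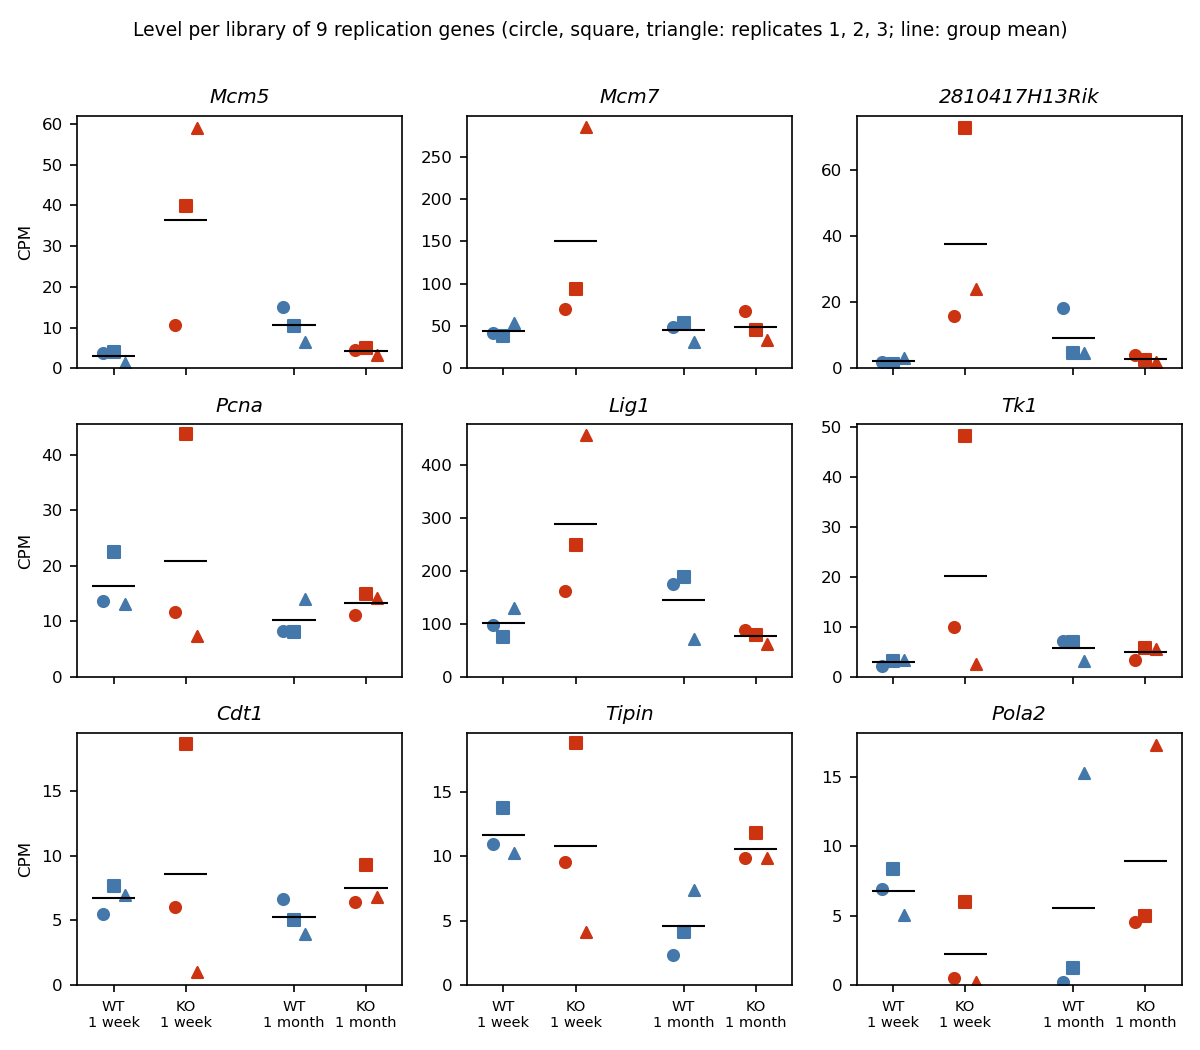
CPM of 9 members in each library (points) by group, with the group mean as a line. The genes were chosen after their values were seen. Mcm5, Mcm7, 2810417H13Rik and Lig1 show each KO library of 1 week above each WT library, whereas Pcna, Tk1, Cdt1, Tipin and Pola2 show KO replicate 3 near or below WT.

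The 3 KO libraries of 1 week differed among themselves more than the WT libraries did. This held over all genes with enough counts. The mean squared gap between a pair of libraries, relative to counting noise, was 9.1 to 41.7 for WT pairs and 59.6 to 198 for KO pairs. KO replicate 3 had the fewest counts of that time, 5620137. Its rank correlation (Spearman) with the other libraries of that time was 0.746 to 0.842, while the highest of each other library was 0.940 to 0.986. The median over the 53 members of the gap between the highest and the lowest library, in log2 CPM, was 0.68 in WT and 1.74 in KO. It exceeded 1 in 13 members among the WT libraries and in 45 among the KO libraries. KO replicate 2 was above each WT library in 48 members and below each in 0. KO replicate 3 was above in 39 and below in 8, and replicate 1 above in 27 and below in 10. The shares of all genes were not computed for these counts, nor for the counts of the highest library that follow. Neither can be read as particular to the members. The highest of the 6 libraries was KO replicate 2 for 26 members and KO replicate 3 for 23. Replicate 2 led in 6 of the 7 fork genes and 4 of the 5 licensing genes, while replicate 3 led in 5 of the 7 chromatin genes and 3 of the 3 strand processing genes. In replicate 3, Pola2, Cdt1, Tipin and Pcna were more than 1 log2 unit below the WT mean while 30 members were more than 1 above it. Leaving out KO replicate 1, the separated members numbered 37 higher and 0 lower, against 15.7% and 16.1% of all genes with a count. Leaving out KO replicate 2 they numbered 24 and 5, against 18.7% and 17.5%.

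**Figure D4:**
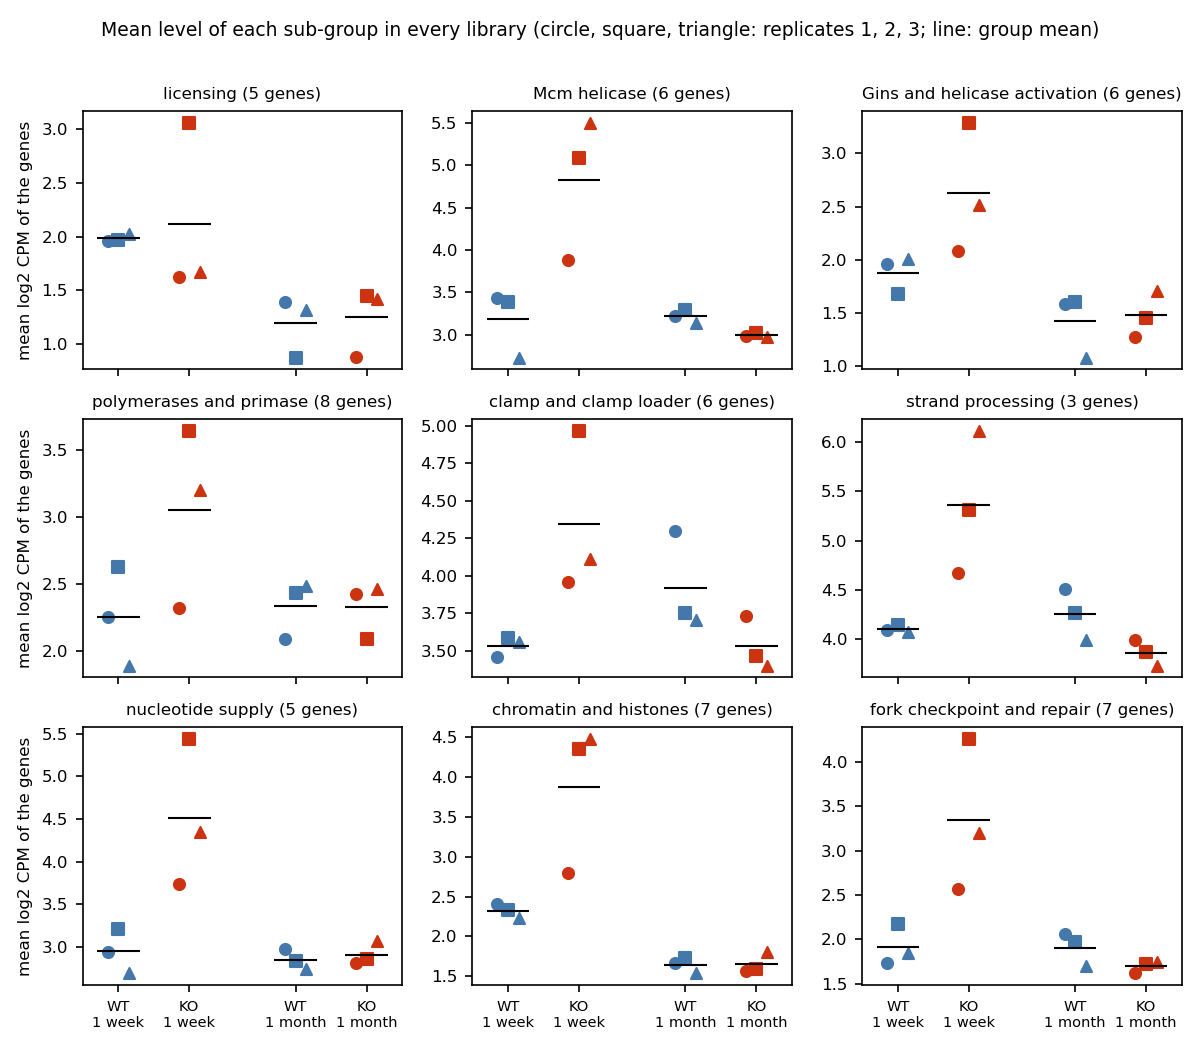
Mean log2 CPM of each role group in each library (points) by group of libraries, with the group mean as a line. At 1 week each KO library lies above each WT library except in the licensing group and the polymerase and primase group, which overlap.

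The 8-letter E2F match was as frequent in separated as in overlapping members at 1 week. Among members with a RefSeq promoter, 10 of the 21 that were separated held a match, or 47.6%, and 10 of the 21 that overlapped did. The shorter 7-letter form, without the first T, was in 81% and 57.1%, and the CCAAT box in 76.2% and 42.9%. These shares are descriptions over small numbers of genes and were not tested.

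Other replication genes had a smaller median log2 fold change. The lists were chosen with earlier results of these data known, and differences between lists were not tested. A list of 46 other replication and S phase genes had 40 tested at 1 week, of which 28 had a positive log2 fold change, with a median of 0.32. None was called by edgeR, 7 had an unadjusted p under 0.05 and a higher level, and DESeq2 called 4. Mitosis genes, which act after replication, stood higher in the same libraries. Of 40 listed, 33 were tested and 32 of these were positive, with a median log2 fold change of 3.55. None was called by edgeR at 1 week, 26 had an unadjusted p under 0.05, and DESeq2 called 28. The proliferation marker Mki67 was counted 22, 25 and 18 times over the WT replicates against 202, 1743 and 771 times over the KO replicates. The mean log2 CPM of the mitosis list was 0.71 to 0.84 in WT and 2.23, 4.65 and 3.35 in KO replicates 1, 2 and 3. By this measure the order of KO libraries was the same as for the members. By summed CPM it was not: the mitosis list had 383, 1860 and 1115 CPM, and the members 946, 1783 and 2226.

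Markers of other cell types were mostly higher in KO at 1 week as well. Of 28 leukocyte, stroma, vessel and muscle markers, 23 were tested, 21 were positive and 11 were separated and higher, with 6 called by DESeq2 and 0 by edgeR. The summed level of the 13 leukocyte markers was 172 to 289 CPM in WT and 333 to 667 in KO. The summed level of the 15 stroma, vessel and muscle markers was 3652 to 5972 CPM in WT and 5841 to 11299 in KO. By mean log2 CPM of the 28 markers, each KO library of 1 week lay above each WT library, 4.71 to 5.27 against 3.74 to 4.53. The stroma, vessel and muscle markers did so too, at 6.61 to 7.60 against 5.59 to 6.52. The leukocyte markers overlapped, at 2.36 to 2.71 in KO and 1.60 to 2.58 in WT. The B cell marker Cd79a had at most 3 counts in each 1-week library. At 1 month the WT libraries carried 11298 to 15022 CPM of the 28 markers, of which stroma, vessel and muscle markers made up 10589 to 13658. The KO libraries of 1 week carried 6508 to 11639. By mean log2 CPM of the markers these groups shared a range, 4.48 to 5.33 and 4.71 to 5.27. The mean log2 CPM of the members in the 1-month WT libraries was 2.31 to 2.51. Time and batch cannot be told apart, and each time was scaled on its own, so levels of different times are not directly comparable. The part of these markers in the difference of the replication genes was not tested.

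**Figure D5:**
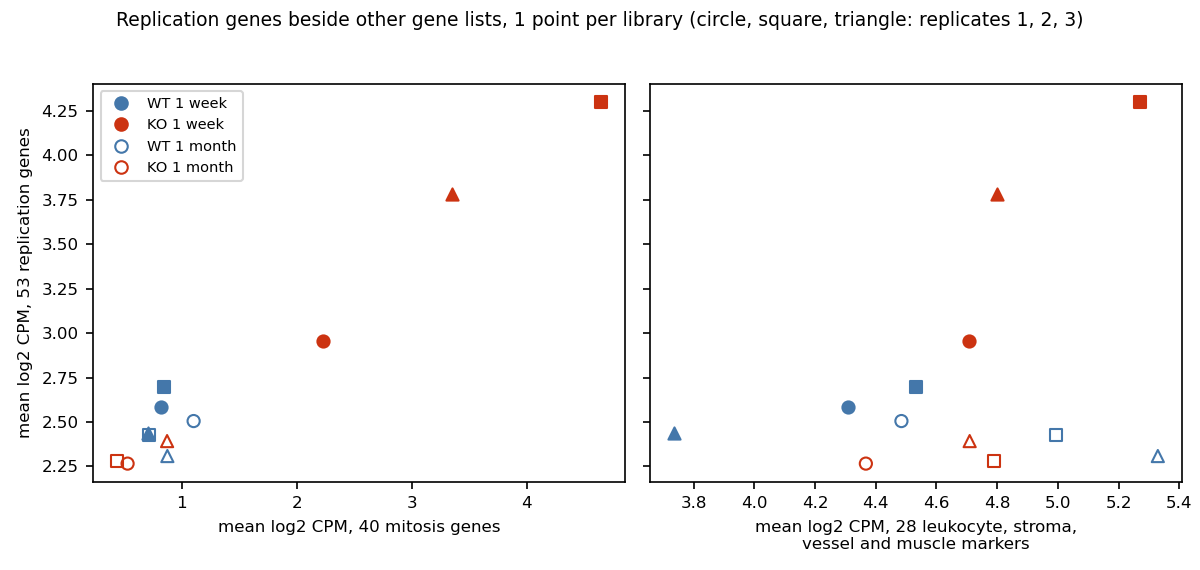
Mean log2 CPM of the 53 members (vertical axis) in each of the 12 libraries, against the mean log2 CPM of 40 mitosis genes (left) and of 28 leukocyte, stroma, vessel and muscle markers (right). The KO libraries of 1 week are highest on the member axis and on the mitosis axis. On the marker axis they lie above the 1-week WT libraries and share a range with the 1-month libraries.

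One month after the start of TMX the replication genes were no longer higher in KO as a list. The mean log2 CPM of the 53 members was 2.51, 2.43 and 2.31 in WT and 2.27, 2.28 and 2.39 in KO, so the groups overlapped, with KO replicate 3 of batch 3 above WT replicate 3. The mean was higher in KO for 19 members, or 35.8%, against 49.7% of all genes with a count. Gmnn, Gins1 and Tipin were separated and higher, and Mcm5, Mcm6, Gins4, 2810417H13Rik and Exo1 separated and lower, against 5% and 6.33% of all genes with a count (5.72% and 7.58% of those that passed the filter). These shares of 3 and 5 in 53, 5.66% and 9.43%, were close to that background. Of these separated members, Gmnn, Gins1 and Exo1 were too low at this time to be tested with edgeR. Exo1 is separated only through library scaling. Replicate 3 of either genotype held 1 read of it, scaled to 0.153 CPM for WT and 0.152 CPM for KO. Among the 40 tested members, 1 was separated and higher and 4 were separated and lower. Without WT replicate 3, the separated members numbered 10 higher and 19 lower, against 20.6% and 19.4% of all genes with a count. No member passed edgeR's adjusted threshold, which called 0.997% of 12139 genes higher and 1.22% lower. At an unadjusted p under 0.05, 3 members were higher and 6 lower (11.1% and 10.3% of all tested genes). DESeq2 called Mcm5, Rfc5 and Lig1 lower and none higher (2.77% and 3.58% of 11467 genes), and called none lower without WT replicate 1, WT replicate 2, KO replicate 1 or KO replicate 2. Of the 53 members 40 were tested, 15 with a positive and 25 with a negative log2 fold change (49.6% and 50.4% of all tested genes). Scaling by library size alone moved the median of all genes from -0.0056 to 0.22, and the split of members became 22 positive and 18 negative.

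Mcm5 and 2810417H13Rik, which were high in KO at 1 week, lay below WT at 1 month. Mcm5 had 15, 10.4 and 6.43 CPM in WT and 4.44, 4.95 and 3.2 in KO (log2 fold change -1.3, SE 0.34, edgeR adjusted p = 0.0642, DESeq2 adjusted p = 0.045). 2810417H13Rik had 18.3, 4.5 and 4.74 CPM in WT and 4.19, 2.4 and 1.83 in KO (log2 fold change -1.65, SE 0.51, edgeR adjusted p = 0.0968). Each KO library was below each WT library in both genes, and WT replicate 1 was the highest. Without that library the log2 fold change of 2810417H13Rik was -0.82. Mcm6 had the log2 fold change farthest below 0, -1.7 (SE 0.48, edgeR adjusted p = 0.0801), from 6.1, 3.42 and 3.82 CPM in WT to 1.11, 1.76 and 1.22 in KO, whereas Mcm2, Mcm3, Mcm4 and Mcm7 overlapped between genotypes.

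Lig1 and Rfc5 were lower in KO within batch 2 and closer in batch 3. Lig1 had 175, 187 and 70.8 CPM in WT and 88.9, 79.2 and 61.9 in KO (log2 fold change -0.81, SE 0.23, edgeR adjusted p = 0.079, DESeq2 adjusted p = 0.028). Its difference in mean log2 CPM was -1.11 in batch 2 and -0.19 in batch 3. Rfc5 had 72.8, 43.7 and 24.3 CPM in WT and 26.9, 18.2 and 18.3 in KO (log2 fold change -1.06, SE 0.29, edgeR adjusted p = 0.0717, DESeq2 adjusted p = 0.0268). Batch 2 gave -1.34 and batch 3 gave -0.41. Batch 3 holds a single library of each genotype. These also differ in Xist counts (7764 in KO and 11 in WT) and in Y-linked counts (0 and 945). In both genes WT replicate 3 was the lowest WT library, within the KO range. Mcm2, Mcm5, Tipin, Rfc5 and Lig1 at this time were singled out after their values were seen.

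The 3 members higher in KO at 1 month at an unadjusted p under 0.05 were Mcm2, Pola2 and Tipin, of which Pola2 and Tipin had negative log2 fold changes at 1 week. Mcm2, another subunit of the helicase, had 1.38, 2.88 and 7.65 CPM in WT and 5.79, 6.71 and 10.7 in KO (log2 fold change 1.12, SE 0.41, edgeR adjusted p = 0.143). The genotypes overlapped, since WT replicate 3 lay within the KO range, and its log2 fold change had the opposite sign to those of Mcm5 and Mcm6. Pola2 had 0.197, 1.26 and 15.3 CPM in WT and 4.56, 4.95 and 17.3 in KO (log2 fold change 1.41, SE 0.55, edgeR adjusted p = 0.168). Both batch 3 libraries were high, so the difference in log2 CPM was 2.5 in batch 2 and 0.18 in batch 3. The batch 3 value carries the limit given for Lig1 and Rfc5. Tipin had 2.36, 4.14 and 7.34 CPM in WT and 9.86, 11.8 and 9.89 in KO (log2 fold change 1.25, SE 0.39, edgeR adjusted p = 0.096), each KO library above each WT library. In batch 2 alone edgeR called 6 of 39 tested members, Mcm5, Rfc5, Lig1 and Clspn lower and Pola2 and Tipin higher, where it called 4.5% of 12103 genes lower and 7.68% higher.

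Beside these values, leukocyte markers were lower in KO at 1 month, with a summed level of 708 to 1407 CPM in WT and 354 to 438 in KO, and 4 of 8 tested called lower by edgeR. Their part in the differences of the members was not tested. Of the 46 other replication genes 38 were tested, and Mms22l, a factor in the repair of broken forks, was the only one called by edgeR (DESeq2 called 2), at 1, 3 and 14 counts over the WT replicates against 23, 14 and 51 over the KO replicates (log2 fold change 2.26, SE 0.54, edgeR adjusted p = 0.0476). For the mitosis genes, 18 of 40 were tested, with 4 positive, 14 negative and none called by either tool, and 1 higher and 3 lower at an unadjusted p under 0.05. The edgeR calls of this time depended on the fit. With the batch term 269 of 12139 genes were called, and without it 0. One fit of all 12 libraries also called 0, of 13122.

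The change of the KO difference between the times was tested as the interaction of genotype and time over the 12 libraries, with batch as a term. The interaction was negative for 40 of 50 tested members and positive for 10 (51.7% and 48.3% of all tested genes). No member was called by edgeR, and neither was any of the 13122 tested genes (0% in either direction). At an unadjusted p under 0.05, 26 members had a KO difference more negative at 1 month than at 1 week and 1 had one more positive, against 12% and 7.87% of all tested genes. The smallest adjusted p of a member, 0.0879, was shared by 2810417H13Rik (log2 fold change -5.77, SE 0.97), Mcm5 (log2 fold change -4.9, SE 0.83) and Clspn (log2 fold change -4.81, SE 0.86), which were named after their values were seen. DESeq2 called 11 members more negative and 0 more positive (3.99% and 1.82% of 14287 genes). These were Mcm3, Mcm5, Pola1, Pole, 2810417H13Rik, Rfc5, Lig1, Chaf1a, Nasp, Uhrf1 and Clspn. With edgeR, 10, 6 and 7 members were called more negative when KO replicate 1, 2 or 3 of 1 week was left out, against 1.35%, 2% and 1.67% of all genes tested. Pola2 was called more positive without KO replicate 2, as were 1.29% of genes. None was called when 1 of the other libraries was left out. The member more positive at 1 month was Pola2, at 3.12 (SE 1.3, edgeR adjusted p = 0.221). Since the difference at 1 week rests on libraries that also differ in Xist and Y-linked counts, the interaction carries the same limit.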

How the data were processed

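Gene expression was measured in 12 libraries of peeled urothelium by 3′ mRNA sequencing (QuantSeq forward kit, oligo-dT primed, sense strand, per the labels' protocols). The authors deposited whole-number read counts per gene, 1 table for each time. Bowtie, TopHat and HTSeq with mm10, and DESeq2, are named in the submitters' processing notes, and their versions and the annotation are not given in the sources used here. For WT replicate 3 at 1 month, the title and the library name in the labels carry different animal numbers, and its column was matched through the library name. Totals of 5580961 to 9497088 counts limit the precision of low genes, and 3 counts corresponded to 0.316 to 0.538 CPM. Intervals and floors cover counting error only.

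Counts were scaled by TMM, filtered with filterByExpr and tested, KO against WT, with the robust quasi-likelihood test of edgeR 4.0.16 (R 4.3.3), two-sided, and p-values were adjusted by Benjamini-Hochberg over each whole table of tested genes. Batch was a term at 1 month and in the interaction over 12 libraries. The log2 CPM used a prior count of 2. DESeq2 1.42.0, other scalings and filters, and leaving out each library were alternatives. The members and gene lists were chosen with earlier results of these data known. Full values were given for up to 3 members a role group with the highest mean CPM, the 3 with the largest fold change at each time, any called, and those against the majority at 1 week. Other genes with values were chosen after their values were seen. The steps were tested on simulated data. Promoters came from RefSeq (GRCm38.p6).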

Additional observations from a re-analysis of the deposited data

How the results depend on the processing

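With all libraries, the log2 fold changes of tested members kept their sign except under scaling by library size alone, which turned Cdca7 at 1 week, Mcm3, Pold1, Pold3, Rfc3, Rrm1, Rrm2 and Tk1 at 1 month, and Tyms and Slbp in the interaction. Batch 2 alone turned Mcm4, Prim1 and Pold3. The median of tested members kept its sign except at 1 month, where scaling by library size alone turned it from -0.15 to 0.069. Where a count of calls moved, the cause was not tested. DESeq2 moved the calls of members from 0 to 20 higher at 1 week, from 0 to 3 lower at 1 month and from 0 to 11 more negative in the interaction. It also called 4 other replication genes and 28 mitosis genes higher at 1 week, 2 other replication genes higher at 1 month, and 5 and 25 more negative in the interaction. With no filter on low counts, edgeR called 1 member higher at 1 week, against 0.249% of all genes tested. At 1 month it called 2 higher and 5 lower, against 4.47% and 2.62%. In the interaction it called 5 more negative, against 0.552%, and 2 were more positive at an unadjusted p under 0.05. One fit of all 12 libraries called 11 members higher at 1 week and 0 of all genes at 1 month. Without the batch term, edgeR called 0 of all genes at 1 month, against 269 with it. Without the batch term, the members higher at an unadjusted p under 0.05 numbered 1 at 1 month and 0 in the interaction, and batch 2 alone called 2 higher and 4 lower. The 7-letter E2F form was in 69% of member promoters and 10.9% of all.

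Leaving out 1 library at a time at 1 week, edgeR called 0 to 3 members higher and DESeq2 7 to 25 higher and 0 to 1 lower. Over all genes tested, edgeR called 0% to 1.68% higher, and DESeq2 1.75% to 5.5% higher and 0.35% to 3.16% lower. The separated members numbered 24 to 37 higher and 0 to 5 lower. Of all genes with a count, 12.9% to 18.7% were separated higher and 12.3% to 17.5% lower. Of the members, 0 to 1 was lower at an unadjusted p under 0.05, and 4 to 11 had a negative log2 fold change. At 1 month edgeR called 0 to 3 members higher and 0 to 4 lower, against 0.0722% to 7.85% and 0.289% to 4.48% of all genes. DESeq2 called 0 to 2 in each direction, against 0.549% to 5.83% higher and 0.742% to 3.59% lower. At an unadjusted p under 0.05, 1 to 3 were higher. The separated members numbered 3 to 10 higher and 6 to 19 lower, against 6.92% to 20.6% and 8.58% to 19.4% of all genes with a count. In the interaction 0 to 10 members were called more negative and 0 to 1 more positive, against 0% to 2% and 0% to 1.29% of all genes. At an unadjusted p under 0.05 the members numbered 17 to 30 and 0 to 3. The log2 fold change changed sign at least once for 12 members at 1 month, 9 in the interaction and 10 at 1 week: Cdca7, Gmnn, Pcna, Orc6 (-0.28 to 0.042), Tipin (-0.79 to 0.25), Rfc4 (-0.80 to 0.18), Gins4 (-0.21 to 0.23), Cdt1 (-0.92 to 0.86), Usp1 (-0.031 to 0.65) and Gins3 (-0.028 to 0.71).

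No paired analysis was possible because the labels carry no replicate numbers shared between the genotypes, and the numbers used here only name libraries in accession order. Members with few counts, such as Orc1, Cdc45, Pole2 and Exo1, were limited by depth.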
